A study of Saccharomyces cerevisiae with 83 samples.

Results

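The time course of yeast strain AGY1613 comprised 9 of the 83 barcode libraries of the series: 3 replicates each at generation 0, generation 5 and generation 10 of batch 2, picked by the strain, generation and replicate named in their labels. Every cell carried a centromeric plasmid with 1 barcoded gene in a haploid Saccharomyces cerevisiae host of the North American YPS1009 background, and barcode counts recorded how common each plasmid was in the pool. The series covers euploid strains and strains that gained chromosome IV, VII, XII or XV, in either case with or without the RNA-binding protein gene SSD1, and asks how a further gene copy affects fitness. Which of these AGY1613 is cannot be read from the labels, so it is called by its number, and the same holds for AGY1611 and AGY1860, the other strains of batch 2 sampled at all 3 generations.

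All these cultures grew at 30 °C in synthetic medium lacking histidine, with nourseothricin at 100 mg per L, which the labels give as keeping amplified chromosomes, and G418 at 200 mg per L, which kept the plasmids. The generation 0 pools were what remained of the frozen stocks, and the culture was diluted to an OD600 of 0.05 at generation 5. The early change (generation 5 against 0) therefore sets a culture against its stock, while the late change (generation 10 against 5) sets 2 samples of a culture against each other. The design text states that the 3 replicates of batch 2 came from 3 separate transformations with the plasmid library.

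A centromeric plasmid segregates much like a small chromosome and is kept at about the copy number of a chromosomal gene, so each cell of the pool had roughly a duplicate of 1 gene under that gene's own control. In a mixed culture under selection, cells that divide more slowly make up less of the pool each generation, and their barcode counts fall relative to the rest. Dosage-sensitive genes of yeast are known to include histones and tubulin, whose products assemble in fixed proportions and are toxic in excess. A lineage that grows at a constant disadvantage loses the same log2 amount in each interval of equal length.

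The generation 0 libraries held 4173538 to 7004144 counts, those of generation 5 held 1887669 to 5409233, and those of generation 10 held 561486 to 1530987, the lowest being replicate 1. The filter on low counts left 4528 gene entries for testing, of 4871. All 4528 had counts at generation 0, whereas 123, 178 and 196 of them were at 0 in the 3 generation 10 libraries. The spread between replicates widened with time: the median standard deviation of log2(CPM + 1) was 0.0573 at generation 0, 0.288 at generation 5 and 0.487 at generation 10 (n = 3 libraries each, over 4373 entries with a mean of at least 50 counts at generation 0). CPM is the share of a library's TMM-scaled gene counts in parts per 1e6. All values are relative to the other plasmids in the pool, so a plasmid can rise because others fell.

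Over the whole course, 882 entries changed (19.5% of those tested): 476 were lower at generation 10 than at generation 0 (10.5%) and 406 were higher (8.97%), by edgeR's quasi-likelihood test at a Benjamini-Hochberg adjusted p under 0.05. The falls were larger than the rises. The entries that fell had a median log2 change of −1.80, and those that rose a median of 0.83. With library size alone in place of TMM the split was 552 lower and 247 higher, and the median log2 change of all entries moved by −0.146. In the late interval 89 entries changed (1.97%), 88 of them lower (1.94%) and 1 higher (0.0221%), and all 89 were also called over the whole course. In the early interval no entry passed in the same fit (0% of 4528): 461 entries had an unadjusted p under 0.05, and the lowest adjusted p was 0.217. The early count depends on the model, since the 6 libraries of generations 0 and 5 fitted alone gave 230 entries, 134 lower and 96 higher, of which 220 were among the whole-course calls, and DESeq2 gave 186. Each interval is a part of the whole course and shares libraries with it, so overlap with the whole-course calls is partly built in. With replicate number as a block, that fit to 6 libraries gave 502 early calls, 207 lower and 295 higher, and the fit to 9 libraries gave 0. The late count does too: DESeq2 gave 246, a fit to the 6 libraries of generations 5 and 10 gave 5, and that fit with replicate number as a block gave 140. Single libraries moved these counts as well: late calls were 40 without generation 5 replicate 3, 48 without generation 5 replicate 2, 53 without each generation 0 library and 199 without generation 10 replicate 1, and whole-course calls were 379, 388 and 340 without generation 0 replicates 1, 2 and 3.

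The test of the late change minus the early change, which is 0 at a constant rate, passed for 0 entries in edgeR (0% of 4528), with 62 at an unadjusted p under 0.05, and for 12 in DESeq2, all lower in the late interval. No single entry was thus shown by edgeR to change its pace. The split of the change is given next as a description with no test: the early share is the early log2 change divided by the whole log2 change, with 0.5 for a constant rate. The early and late change share the generation 5 libraries, so an error there moves one up and the other down.

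Among the 476 entries that fell, the median early share was 0.392, and 391 (82.1%) lay under 0.5. By replicate the median share was 0.491, 0.369 and 0.331, so replicate 1 lay close to a constant rate and replicates 2 and 3 lay further below it. In all, 155 of the 476 were late-weighted (a share of 0.33 or less), 311 were even and 10 were early-weighted (a share of 0.67 or more). The median whole-course log2 change was −4.23 in late-weighted entries, −1.42 in even ones and −0.61 in early-weighted ones. Size and timing are not separate measures here, because the whole change is the denominator of the share that sets the class. A large late change makes an entry both larger and more late-weighted, and a link between size and timing was not tested. Low counts bear on the first of these, because 36 of the 155 late-weighted entries had 0 counts in all 3 generation 10 libraries, so that their fitted change is no measure of size. With those 36 set to the bound that a floor of 3 counts allows, the median of the late-weighted entries was −2.73, and that of all 476 falls was −1.55 in place of −1.80. At that bound 121 entries were late-weighted and 38 early-weighted, so the timing of an entry at 0 is not settled at this depth. The other 119 late-weighted entries had a median of −3.53. Among the 357 entries that fell with at least 50 mean counts at generation 0 and at least 3 counts in every generation 10 library, 66 were late-weighted, 281 even and 10 early-weighted, with a median share of 0.421. Without generation 5 replicate 1, 264 of the 476 were late-weighted and 5 early-weighted. The early-weighted count was 27 without generation 5 replicate 3, 24 without generation 5 replicate 2, 17 to 20 without a generation 10 library and 4 to 6 without a generation 0 library. The 406 entries that rose were more evenly spread over time, with a median share of 0.541, of which 35 were early-weighted, 354 even and 17 late-weighted.

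**Figure D1:**
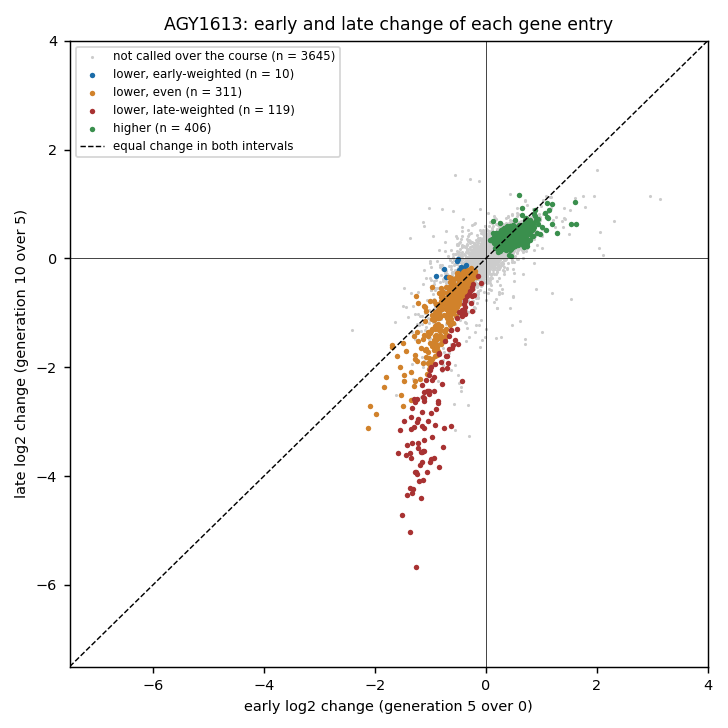
Early log2 change (horizontal axis, generation 5 over 0) against late log2 change (vertical axis, generation 10 over 5) for the 4491 tested entries of AGY1613 with at least 1 count at generation 10, as edgeR fitted them. Red, orange and blue points are entries that fell over the whole course, by class of early share, green points are the 406 that rose, grey points were not called, and the dashed line marks equal change in both intervals. The strongest falls lie under the dashed line, with late changes down to −5.67. LOC1, at that value, had 0, 0 and 3 counts at generation 10, and its late change ran from −10.45 to −4.93 between alternatives. Early changes of strong falls include −2.12 for YME1 and −2.09 for SMC4.

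Copies that lost most of their fall before generation 5 were a small set with modest falls. Their share of the loss was early, but the loss was not fast: the early-weighted entries had a median early log2 change of −0.49, against −0.65 for even and −1.03 for late-weighted ones. Lower early changes belonged to entries that went on falling, such as YME1 at −2.12, SMC4 at −2.09 and SAM3 at −1.41. The 8 early-weighted entries with the lowest early change were FMP46, QDR2, PAU8, CBF1, PDC1, CIK1, CIS1 and WHI4, whose early log2 changes ran from −0.90 to −0.43. FMP46, a putative redox protein of mitochondria, had 103, 124 and 106 CPM at generation 0, 47.5, 68.1 and 61.9 CPM at generation 5, and 52.8, 55.9 and 33.9 CPM at generation 10. Its generation 5 and generation 0 values did not overlap, whereas those of generations 5 and 10 did. Its whole-course log2 change was −1.22 (SE 0.31, adjusted p = 0.0242).

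PDC1, which encodes the main pyruvate decarboxylase of alcoholic fermentation, had 329, 369 and 352 CPM at generation 0, 250, 255 and 240 CPM at generation 5, and 264, 241 and 235 CPM at generation 10. Nearly all of its fall lay before generation 5: the early log2 change was −0.50 (SE 0.13) and the late one −0.01 (SE 0.13). CBF1, a centromere-binding protein that also activates genes of methionine synthesis, had a similar course, with early and late log2 changes of −0.52 and −0.04. QDR2, a plasma membrane drug exporter, had 138, 148 and 162 CPM at generation 0, 88.4, 75.3 and 102 CPM at generation 5, and 73.9, 88.5 and 69.5 CPM at generation 10. CIK1 encodes a partner of the kinesin Kar3, and WHI4 an RNA-binding protein related to Whi3. Their whole-course log2 changes were −0.69 (adjusted p = 0.0293) and −0.63 (adjusted p = 0.0222). All 8 calls rest on 3 replicates at generation 0: without any 1 of those libraries none of the 8 passed, and none passed in the fit to all 51 libraries of batch 2.

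Several large losses with counts left at generation 10 were late-weighted, and others, such as GCN2, were even. MET14, the adenylylsulfate kinase of sulfate assimilation, had 278, 289 and 293 CPM at generation 0, 82.2, 143 and 135 CPM at generation 5, and 5.28, 8.71 and 8.68 CPM at generation 10. Every library of a generation lay under every library of the generation before. The log2 change was −1.25 early (SE 0.25) and −3.92 late (SE 0.31, adjusted p = 0.000675). SAM3, the S-adenosylmethionine permease, had 208, 201 and 189 CPM at generation 0, 51.2, 86.1 and 86.7 CPM at generation 5, and 1.76, 2.18 and 6.31 CPM at generation 10, with 1 to 8 counts behind each of the last 3 values. Its late log2 change was −4.34 (SE 0.46, adjusted p = 0.00138).

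DOM34, which acts in rescue of stalled ribosomes, had 818, 801 and 813 CPM at generation 0, 259, 443 and 501 CPM at generation 5, and 17.6, 30.5 and 37.9 CPM at generation 10. SSQ1, a mitochondrial Hsp70 needed for iron-sulphur cluster assembly, had 1065, 1087 and 1081 CPM at generation 0, 313, 530 and 592 CPM at generation 5, and 14.1, 55.1 and 45.0 CPM at generation 10. Replicate 1 was the lowest of the 3 at both later generations for both genes. The late log2 changes were −3.75 for DOM34 (SE 0.31, adjusted p = 0.000675) and −3.56 for SSQ1 (SE 0.38, adjusted p = 0.00138). MET14, DOM34 and SSQ1 kept their late call in every alternative run, including the fit to 6 libraries that left 5 late calls in all. Of 29 late calls among the entries named by rule, these 3 alone held in that fit.

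CCW12, a major mannoprotein of the cell wall encoded on chromosome XII, had 260, 287 and 277 CPM at generation 0, 73.4, 155 and 134 CPM at generation 5, and 3.52, 9.43 and 11.0 CPM at generation 10. It went down in both intervals in each culture, by a log2 change of −1.18 early (SE 0.32) and −3.80 late (SE 0.40, adjusted p = 0.00138). Its replicate 1 value of 3.52 CPM was under the 5.28 CPM that 3 counts stand for in that library. The late fall of CCW12 was not called in the fit to 6 libraries (adjusted p = 0.0802). A pair of sterol synthesis genes, of 42 entries for sphingolipid and ergosterol synthesis, were also called lower in the late interval (4.76%, beside 1.94% of all entries), while the list's median late log2 change was 0.15. ERG3, the C-5 sterol desaturase, had 471, 465 and 498 CPM at generation 0, 130, 174 and 260 CPM at generation 5, and 10.6, 29.0 and 21.3 CPM at generation 10, a late log2 change of −3.13 (SE 0.35, adjusted p = 0.00167). ERG26, which acts in C-4 demethylation of sterols, was at 0, 7.26 and 1.58 CPM at generation 10, with a late log2 change of −4.31 (SE 0.66, adjusted p = 0.00984). Replicates 1 and 3 of ERG26 were under 3 counts there. Neither ERG3 nor ERG26 was called late in the fit to 6 libraries.

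Single genes of the nuclear pore, tubulin, kinetochore and mRNA decay lists gave further late falls. Late falls were called for 2 of 41 nuclear pore and import entries (4.88%) and 2 of 45 for tubulin, actin and their regulators (4.44%). They were called for 1 of 47 spindle pole body and kinetochore entries (2.13%) and 1 of 27 for mRNA decay (3.70%), beside 1.94% of all entries. The median late log2 changes of these lists were 0.07, −0.01, 0.15 and 0.04. NUP120, of the outer ring of the nuclear pore, had 99.1, 106 and 110 CPM at generation 0, 30.0, 46.8 and 45.7 CPM at generation 5, and 1.76, 2.18 and 2.37 CPM at generation 10. NUP60, a nucleoporin of the nuclear side, kept 24.6, 22.5 and 40.2 CPM at generation 10, against 346, 341 and 333 CPM at generation 0. Their late log2 changes were −4.22 and −2.50 (adjusted p = 0.00138 and 0.00406). No NUP120 value at generation 10 was above 3 counts, which stand for 5.28, 2.18 and 2.37 CPM in those libraries. The size of its late fall thus rests on few counts. TUB2, which encodes beta-tubulin, had 224, 222 and 233 CPM at generation 0, 63.0, 92.5 and 115 CPM at generation 5, and 1.76, 5.08 and 16.6 CPM at generation 10. Its late log2 change was −3.40 (SE 0.54, adjusted p = 0.0113), and without generation 5 replicate 3 its adjusted p was 0.0534. Replicate 1 of TUB2 was under 3 counts at generation 10. NNF1, of the kinetochore, and NOT5, of the Ccr4-Not deadenylase complex, had late log2 changes of −3.09 and −2.44 (adjusted p = 0.00543 and 0.00138). None of these late calls, from NUP120 to NOT5, held in the fit to the 6 libraries of generations 5 and 10.

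**Figure D2:**
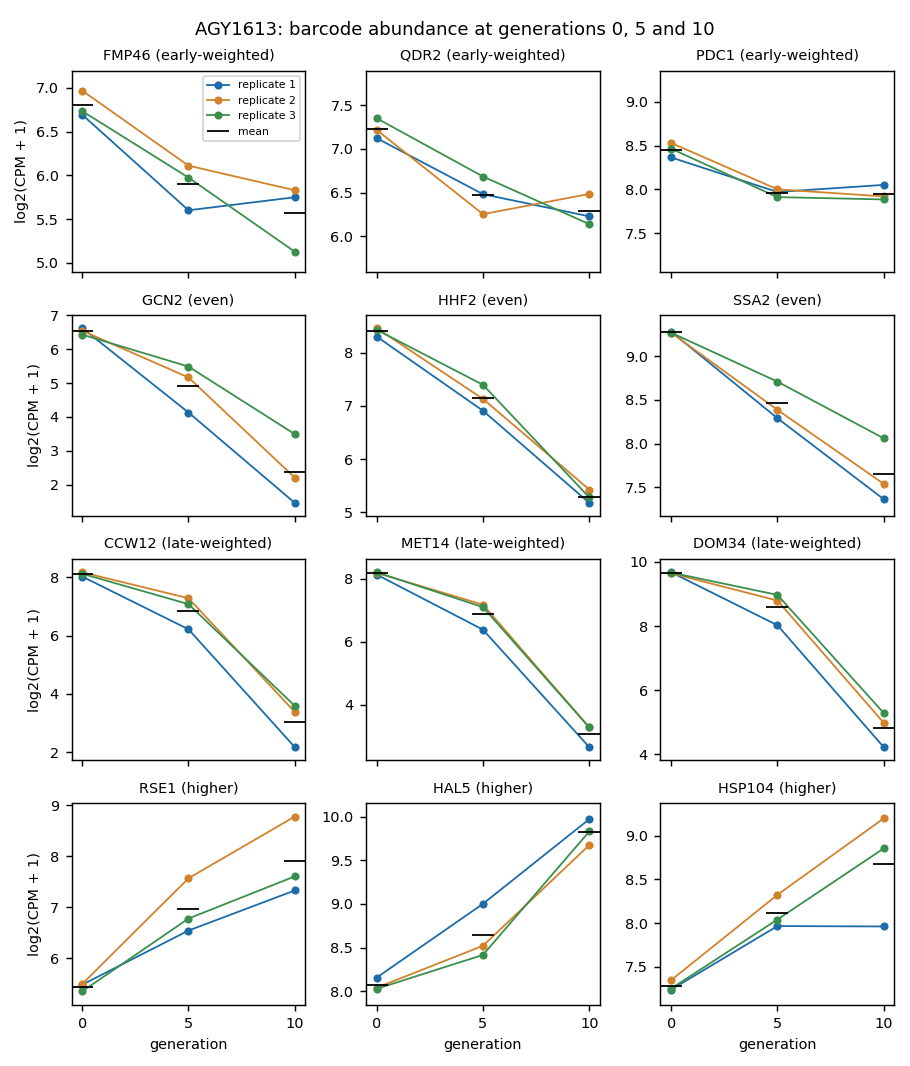
Barcode abundance in log2(CPM + 1) (vertical axis, scaled for each panel) at generations 0, 5 and 10 (horizontal axis) for 12 entries of AGY1613. Coloured lines are the 3 replicates and black bars their means. PDC1 stays level after generation 5, and SSA2 goes down by similar steps in both intervals. HHF2 goes down in both, with the larger step in the late one, and CCW12, MET14 and DOM34 go down much more steeply after generation 5. The panels of the early-weighted and other classes show entries picked by their own changes.

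Losses of the even class, nearer to a constant rate than the late-weighted ones, included a histone gene and a cytosolic chaperone. HHF2, 1 of the 2 genes for histone H4, had 315, 353 and 345 CPM at generation 0, 119, 139 and 168 CPM at generation 5, and 35.2, 42.1 and 37.9 CPM at generation 10. No libraries of different generations overlapped, and the log2 change was −1.25 early (SE 0.18) and −1.88 late (SE 0.20, adjusted p = 0.00138). SSA2, a cytosolic Hsp70, had 621, 616 and 616 CPM at generation 0, 312, 334 and 417 CPM at generation 5, and 164, 185 and 266 CPM at generation 10, with an early log2 change of −0.80 and a late one of −0.78. GCN2, the kinase that phosphorylates initiation factor eIF2 on amino acid starvation, had 97.7, 92.4 and 85.3 CPM at generation 0, 16.5, 34.9 and 43.9 CPM at generation 5, and 1.76, 3.63 and 10.3 CPM at generation 10. Replicate 1 of GCN2 was lowest at both later generations, and was under 3 counts at generation 10. Over the whole course GCN2 fell by 4.03 on the log2 scale (SE 0.63, adjusted p = 0.00309) and SSA2 by 1.58 (SE 0.20, adjusted p = 0.00109).

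Some copies were gone from the counts by generation 10, and for these only bounds can be given. CDC15, a kinase of mitotic exit, had 79, 152 and 111 counts at generation 0, 16, 37 and 49 counts at generation 5, and 0 in all 3 libraries at generation 10. EGD2, of the nascent polypeptide-associated complex, had 108, 138 and 102 counts, then 17, 29 and 44 counts, then 0. Against a floor of 3 counts per library at generation 10, CDC15 was at least 6.36-fold lower than it had been at generation 0, and EGD2 at least 6.65-fold lower. Set against generation 5, the falls were at least 3.03-fold for CDC15 and at least 2.71-fold for EGD2. Both late calls were lost without any 1 generation 0 library, and without generation 5 replicate 2 or 3. LOC1, which acts in ribosome biogenesis and localization of ASH1 mRNA, was deeper: it had 109, 123 and 118 CPM at generation 0, 36.7, 57.3 and 52.1 CPM at generation 5, and 0, 0 and 3 counts at generation 10, with a late adjusted p of 0.00447.

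The rule for late loss named 5 more entries at 0 in all 3 generation 10 libraries. NIP100, of the dynactin complex, RUD3, a Golgi matrix protein, IRA1, a GTPase-activating protein for Ras, CCR4 entry 2, for the deadenylase subunit of Ccr4-Not, and RPN8, of the proteasome lid, were at least 8.23-fold, 4.59-fold, 5.80-fold, 2.93-fold and 2.94-fold lower than they had been at generation 0. NIP100 had uneven stocks, with 152, 60 and 178 counts at generation 0 and 8, 11 and 106 counts at generation 5. Of the 5, RUD3 alone was called in the late interval (adjusted p = 0.0174), where its bound was 2.70-fold. RUD3 was not called with a replicate block (adjusted p = 0.0613), without any 1 generation 0 library, or without generation 5 replicate 2 or 3. The 5 named even losses besides GCN2 were also shallow by generation 10, where each had from 0 to 4 counts per library. They were YME1, a mitochondrial protease, DSE4, a cell wall glucanase of daughter cells, SMC4, of condensin, SNQ2, a drug efflux pump, and SKN1, which acts in glucan synthesis, at whole-course log2 changes of −5.23, −4.84, −4.81, −4.20 and −3.99 (adjusted p = 0.00791, 0.0238, 0.0133, 0.00895 and 0.00906). These sizes rest on few counts and moved between alternatives, down to −8.52 for YME1, −8.31 for DSE4 and −9.57 for SMC4. DSE4 and SMC4 lost the call without any 1 generation 0 library, and SKN1 without generation 0 replicate 1.

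The copies that gained did so in both intervals for the most part. RSE1, a subunit of the splicing factor SF3b, had 43.8, 44.2 and 39.9 CPM at generation 0, 92.5, 189 and 109 CPM at generation 5, and 160, 439 and 194 CPM at generation 10. It was the highest riser under the rule used, at a whole-course log2 change of 2.64 (SE 0.42, adjusted p = 0.00366), and replicate 2 stood above the others at both later generations. TKL1, a transketolase of the pentose phosphate pathway, was early-weighted, with log2 changes of 1.54 early and 0.63 late. IOC3, of the ISW1a chromatin remodeller, had 135, 145 and 136 CPM at generation 0, 272, 329 and 303 CPM at generation 5, and 319, 600 and 594 CPM at generation 10, a whole-course log2 change of 1.87 (SE 0.23, adjusted p = 0.00105). All 3 IOC3 libraries of generation 10, and all 3 of generation 5, lay above every stock.

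Other high risers rested more on 1 replicate. SSL1, of the general transcription factor TFIIH, had 47.3, 53.3 and 43.9 CPM at generation 0, 83.2, 70.9 and 162 CPM at generation 5, and 96.8, 107 and 378 CPM at generation 10, with replicate 3 highest at both later times. AQY3, a putative channel protein of the aquaporin family, NAR1, of cytosolic iron-sulphur protein assembly, and YDR131C, an F-box protein, also had replicate 3 highest at both later times. SSL1, NAR1 and YDR131C lost their whole-course call without generation 10 replicate 3, and all 4 lost it without any 1 generation 0 library. Their whole-course log2 changes were 2.02, 1.89, 1.76 and 1.86 in the order SSL1, AQY3, NAR1 and YDR131C (adjusted p = 0.0308, 0.0119, 0.0338 and 0.0484). MPF1 was steadier, with 265, 256 and 266 CPM at generation 0, 623, 474 and 567 CPM at generation 5, and 798, 559 and 1036 CPM at generation 10, and an early log2 change of 1.08 against a late one of 0.52.

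Late-weighted gains were small. SAP155, which binds the phosphatase Sit4, had 106, 112 and 110 CPM at generation 0, 149, 117 and 127 CPM at generation 5, and 137, 245 and 230 CPM at generation 10. ACS1, acetyl-CoA synthetase, had 68.2, 72.9 and 77.0 CPM at generation 0, 87.8, 77.0 and 74.6 CPM at generation 5, and 157, 115 and 116 CPM at generation 10. The generation 5 and generation 0 values of ACS1 overlapped, whereas those of generation 10 lay above both. Both whole-course calls (0.91 and 0.83 on the log2 scale, adjusted p = 0.0283 and 0.0425) were lost without any 1 generation 0 library.

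HAL5, a protein kinase that stabilizes plasma membrane nutrient transporters, was the single entry that rose in the late interval. It had 284, 263 and 260 CPM at generation 0, 512, 366 and 341 CPM at generation 5, and 1002, 815 and 908 CPM at generation 10. The 3 generations did not overlap, and the log2 change was 0.59 early (SE 0.17) and 1.16 late (SE 0.17, adjusted p = 0.00762). The late rise of HAL5 was not called in the fit to 6 libraries (adjusted p = 0.122) or in the fit to all 51 libraries (adjusted p = 0.157). Of 7 entries for histidine synthesis and GCN4, 0 fell and 2 rose (28.6%) over the whole course, beside 10.5% and 8.97% of all entries. HIS3, an enzyme of histidine synthesis, had 262, 246 and 208 CPM at generation 0, 413, 390 and 360 CPM at generation 5, and 465, 501 and 529 CPM at generation 10. Its whole-course log2 change was 1.06 (SE 0.14, adjusted p = 0.00131). GCN4, the activator of amino acid synthesis genes, rose by 0.47 (SE 0.12, adjusted p = 0.0216), most of it late (0.34 of 0.47), and lost the call when any 1 generation 0 library was left out.

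By function, histones had the largest share of members that fell. Of 10 histone entries tested, 8 fell and 0 rose over the whole course (10.5% and 8.97% of all entries), with a median log2 change of −0.52 early, −0.85 late and −1.41 over the whole course, beside medians of 0.01, 0.06 and 0.08 over all entries. The 8 were both genes for H4, both for H3, both for H2A, HTB2 and 1 entry of HTB1, with changes from −3.13 for HHF2 to −0.97 for HTB1 entry 2. HTZ1, the H2A variant, and HHO1, the linker histone, had log2 changes of 0.34 and 0.46 (adjusted p = 0.114 and 0.492). The replicates gave whole-course histone medians of −1.34, −1.57 and −1.14, and leaving out 1 library left 6 to 8 calls.

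Genes for the cytoskeleton and the nuclear pore held further falls. Of 45 entries for tubulin, actin and their regulators, 8 fell (17.8%) and 0 rose, beside 10.5% and 8.97% of all entries. TUB1, for alpha-tubulin, fell by 1.97 on the log2 scale and KIP1, a mitotic kinesin, by 2.82 (adjusted p = 0.028 and 0.00115). Of 41 entries for the nuclear pore and import, 7 fell (17.1%) and 2 rose (4.88%). Besides NUP120 and NUP60, MLP1 of the nuclear basket fell by 2.08 (adjusted p = 0.00791), and NUP100, an FG nucleoporin, rose by 1.21 (adjusted p = 0.0354). Leaving out 1 library gave 4 to 10 falls for the first list and 3 to 9 for the second, the lower value in each case without generation 0 replicate 1. Without that library falls over all entries also went down, from 476 to 243.

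Cytosolic ribosomal proteins fell more often than all entries did, by small amounts for most members. Of 71 entries for the large subunit, 13 fell (18.3%) and 2 rose (2.82%). Of 53 for the small subunit, 10 fell (18.9%) and 1 rose (1.89%), beside 10.5% and 8.97% of all entries. Their median log2 changes were −0.10 early, −0.10 late and −0.21 over the whole course for the large subunit, and −0.13, −0.14 and −0.31 for the small one. RPL21B and RPP2B fell late, by 3.42 and 1.98 on the log2 scale (adjusted p = 0.0199 and 0.0111). The late call of RPL21B was lost without any 1 generation 0 library and without generation 5 replicate 2 or 3, and that of RPP2B without generation 5 replicate 3. RPL25, which binds signal recognition particle at the tunnel exit, rose by 1.09 (adjusted p = 0.0412). Without 1 generation 0 library the counts of falls went down to 7 of 71 (without replicate 1) and 3 of 53 (without replicate 3). Falls over all entries also went down in these fits, from 476 to 243 and 230. The 3 of 53 for the small subunit were then close to the share over all entries, so its excess was not kept without generation 0 replicate 3.

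Translation factors went both ways. Of 39 entries, 6 fell (15.4%) and 9 rose (23.1%), beside 10.5% and 8.97% of all entries. DOM34, GCN2 and 2 subunits of eIF3, RPG1 and TIF35, were among those that fell, with SUI2, the alpha subunit of eIF2, at −2.56 (adjusted p = 0.00164). The risers had smaller changes, such as SUI1 (eIF1) at 1.10 and HYP2 (eIF5A) at 1.24 (adjusted p = 0.00491 and 0.0109). Sulfate assimilation and methionine genes were split in size. Of 32 entries, 5 fell (15.6%) and 2 rose (6.25%), and SAM3 and MET14 alone fell by more than 5 on the log2 scale. MET18, the second highest riser at 2.20 (adjusted p = 0.00635), is on that list by its name and is known for assembly of cytosolic iron-sulphur proteins. MET18 was not called in the fit to all 51 libraries (adjusted p = 0.358).

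Cell wall genes were split in direction. Of 51 entries, 8 fell (15.7%) and 5 rose (9.80%), beside 10.5% and 8.97% of all entries. The median whole-course log2 change was −0.05. Besides CCW12, GSC2, a catalytic subunit of glucan synthase, fell by 4.71 on the log2 scale (adjusted p = 0.00212) and YPS1, a cell surface protease, by 1.28 (adjusted p = 0.00207). KRE5, needed for beta-1,6-glucan synthesis, rose by 1.31 (adjusted p = 0.00315). Glycolysis and fermentation gave 4 falls and 4 rises among 23 entries (17.4% each), with TDH3 at −0.84 and TDH2 at 0.93 (adjusted p = 0.00522 and 0.0338), both of which encode glyceraldehyde-3-phosphate dehydrogenase.

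Secretory genes were a list with more rises than falls. Of 40 entries, 1 fell (2.50%) and 7 rose (17.5%), beside 10.5% and 8.97% of all entries. The median log2 change was 0.11 early, 0.14 late and 0.26 over the whole course, which was 0.11 over the whole course with library size alone. SEC9, a t-SNARE of exocytosis, had 43.3, 49.0 and 47.5 CPM at generation 0, 85.3, 64.1 and 105 CPM at generation 5, and 158, 139 and 148 CPM at generation 10, a log2 change of 1.67 (SE 0.27, adjusted p = 0.00347). SAR1, the GTPase of COPII vesicle budding, was the 1 that fell, by 2.32 on the log2 scale (adjusted p = 0.000493). Leaving out 1 library gave 2 to 9 rises, while rises over all entries ran from 110 to 585. Sphingolipid and ergosterol synthesis had 5 falls (11.9%) and 6 rises (14.3%) in 42 entries. All 5 that fell were ERG genes, and LCB1, of the first step of sphingolipid synthesis, rose by 0.98 (adjusted p = 0.0016).

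Other lists stood near the background in the share that fell (10.5% of all entries, with 8.97% rising). Falls were called for 6 of 67 mitochondrial ribosomal proteins (8.96%) and 7 of 52 genes of the respiratory chain and ATP synthase (13.5%). They were called for 4 of 41 chaperones of the Hsp70, Hsp90 and Hsp104 systems (9.76%) and 5 of 47 spindle pole body and kinetochore genes (10.6%). Rises in the same order were 7, 6, 5 and 4 (10.4%, 11.5%, 12.2% and 8.51%). Ribosome biogenesis factors had 5 falls (4.42%) and 11 rises among 113. Proteasome subunits gave 2 falls (6.45%) and 3 rises (9.68%) among 31, and DNA replication genes 2 (4.08%) and 6 (12.2%) among 49. RNA polymerases with Mediator and TFIID gave 4 (5.71%) and 10 (14.3%) among 70. These falls are few, and leaving out 1 library gave 1 to 3, 1 to 4 and 1 to 6 of them. Within the chaperones HSP104, the disaggregase, rose by 1.49 (adjusted p = 0.00631), while SSQ1 and SSA2 fell. The Glc7 phosphatase itself and a regulator of it went opposite ways, GLC7 rising by 1.12 (adjusted p = 0.00694) and GIP1, a subunit that acts in sporulation, falling late by 2.04 (adjusted p = 0.0028), and VPS9, a Rab exchange factor of vacuolar sorting, fell late by 1.92 (adjusted p = 0.00786). Cyclins and other cell cycle control genes had 3 falls and 3 rises among 29 entries (10.3% each), near the background. CDC5, the polo kinase, rose by 1.58 (adjusted p = 0.00171) with 216, 235 and 222 CPM at generation 0, 458, 321 and 285 CPM at generation 5, and 856, 628 and 544 CPM at generation 10. By chromosome, XII had 66 falls among 407 entries (16.2%), the highest share of the 16 chromosomes, next to 15.7% on chromosome I, and 31 rises (7.62%). Its 17 late falls (4.18%) were a share close to those of chromosomes I and VI (4.29% and 4.44%).

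**Figure D3:**
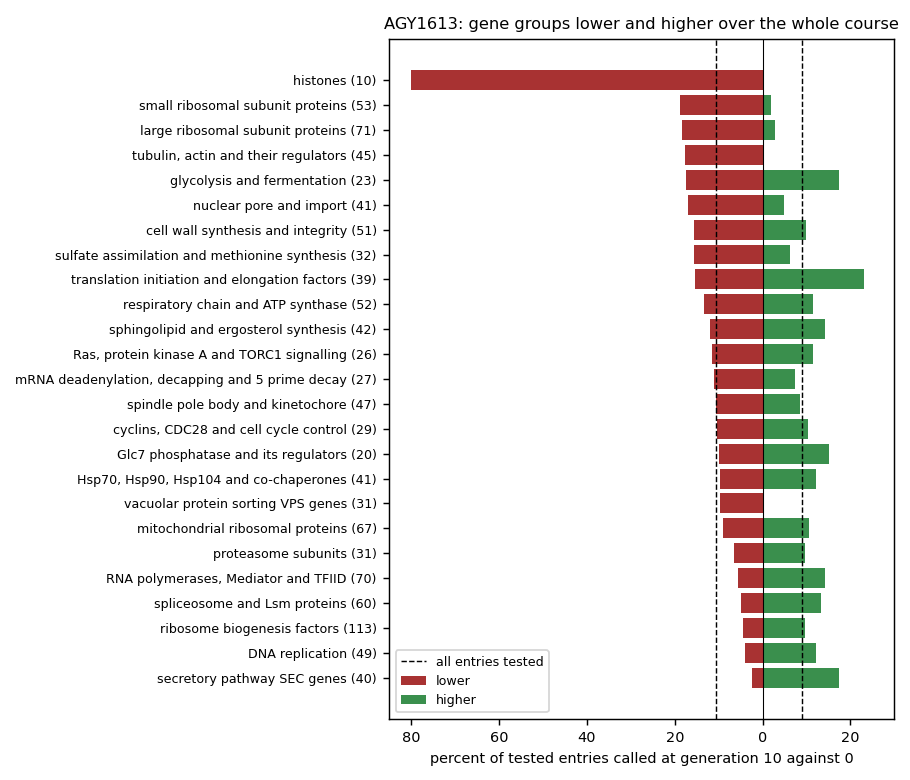
Percent of tested entries called lower (red, drawn to the left) or higher (green, drawn to the right) at generation 10 against generation 0 in AGY1613, for gene lists with at least 20 entries tested and for histones, with the number tested in brackets. Dashed lines mark 10.5% lower and 8.97% higher over all 4528 entries. Histones stand at 80.0% lower, and the other lists lie between 2.50% and 18.9% lower.

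The timing of loss was set beside AGY1611 and AGY1860 with a list whose falls were called in other strains. It held the 100 entries with the lowest mean change among those called lower at generation 10 in both AGY1612 and AGY1614 of batch 1. Libraries of AGY1613, AGY1611 and AGY1860 limited it by counts alone. Each entry needed a mean of at least 50 counts at generation 0 in each of the 3 strains and had to pass the filter of their joint fit. In AGY1613 the 3 cultures had median log2 changes of −1.26, −0.81 and −0.71 early and −1.44, −2.12 and −1.98 late. In AGY1611 they were −1.11, −0.64 and −0.50 early and −2.48, −3.0 and −2.12 late. In AGY1860 they were −2.23, −2.46 and −1.93 early and −1.65, −1.25 and −1.39 late. The median of these 100 was lower in the late interval in each culture of AGY1613 and AGY1611 and lower in the early interval in each culture of AGY1860, a difference described over 3 cultures a strain and not tested. Over all 904 entries called lower in both AGY1612 and AGY1614 that met the same count limits it was smaller, and replicate 1 of AGY1613 did not show it. The medians were −0.28, −0.30 and −0.26 early and −0.26, −0.44 and −0.36 late in AGY1613. In AGY1860 they were −0.63, −0.66 and −0.70 early and −0.50, −0.50 and −0.51 late.

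No single entry passed edgeR's test of an early difference. In a fit to the 27 libraries of the 3 strains, SSQ1 had an early log2 change of −1.11 in AGY1613, −0.84 in AGY1611 and −3.21 in AGY1860, whereas CCW12 had −1.13, −0.43 and −0.22 in the same order of strains. The early difference between AGY1613 and AGY1860 passed for 0 of 4550 entries (0%), with 291 at an unadjusted p under 0.05, and the adjusted p of SSQ1 was 0.277. The early difference between AGY1613 and AGY1611 passed for 0 entries too, with 13 at an unadjusted p under 0.05. Under DESeq2 these counts were 22 and 0, and with a replicate block in edgeR 5 and 0.

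Among all entries, CCW12 alone passed edgeR's test of a difference in the late interval, against both strains (0.022% of 4550 entries each). Under DESeq2, 17 entries passed against AGY1611 and 12 against AGY1860. In edgeR 11 passed against AGY1611 without AGY1611 generation 10 replicate 1. CPM of the other strains are scaled within the 27 libraries. AGY1611 had 256, 258 and 260 CPM of CCW12 at generation 0, 137, 228 and 212 CPM at generation 5, and 72.1, 154 and 136 CPM at generation 10. AGY1860 had 259, 238 and 268 CPM at generation 0, 308, 142 and 211 CPM at generation 5, and 435, 229 and 285 CPM at generation 10. All 3 AGY1613 libraries of generation 10, at 3.52 to 11.0 CPM, lay under all those of both other strains, whereas generation 0 values were alike in the 3 strains. The late log2 change in this fit was −3.83 in AGY1613, −0.66 in AGY1611 and 0.53 in AGY1860. The difference was −3.17 from AGY1611 (SE 0.53, adjusted p = 0.0112) and −4.36 from AGY1860 (SE 0.53, adjusted p = 4.67e-05). The difference from AGY1611 was lost (adjusted p up to 0.0734) without AGY1613 generation 5 replicate 2, generation 10 replicate 1 or generation 10 replicate 2, and without AGY1611 generation 5 replicate 1 or generation 10 replicate 2. That from AGY1860 held in all alternatives run.

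**Figure D4:**
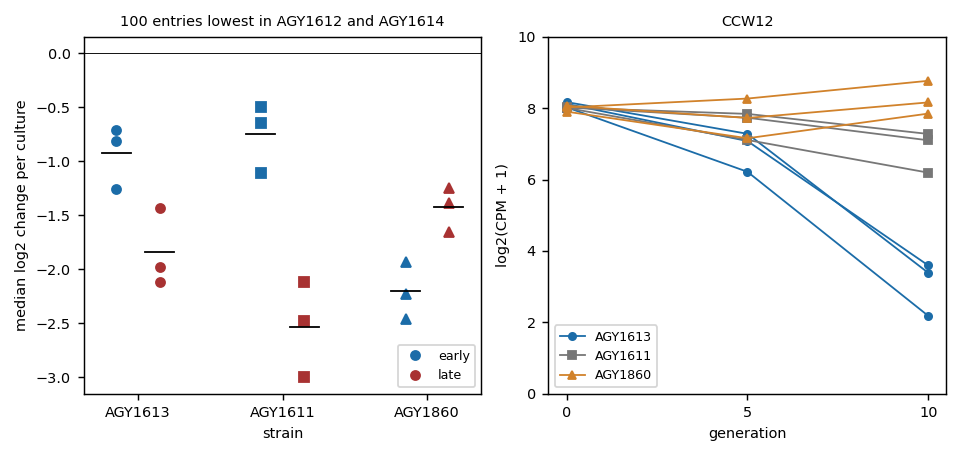
Left, median log2 change of the 100 entries lowest in AGY1612 and AGY1614, early (blue) and late (red), with 1 point per culture and a bar for the mean of 3, in AGY1613, AGY1611 and AGY1860 (horizontal axis). Right, CCW12 in log2(CPM + 1) at generations 0, 5 and 10, with 1 line per culture. The late medians are the lower ones in AGY1613 and AGY1611 and the early medians in AGY1860, and the 3 AGY1613 lines for CCW12 fall under the other 6 at generation 10.

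AGY1613 had also been measured in batch 1 at generations 0 and 10, with 4 replicates at each, where 1049 of 4595 entries were lower (22.8%) and 1009 higher (22%). The 155 late-weighted entries of batch 2 had a median log2 change of −3.61 there over the 152 measured, and the 8 largest early-weighted falls ranged from −1.53 for FMP46 to −0.27 for PDC1. HAL5 changed by 3.27 in batch 1, more than the 1.75 of batch 2. These are not independent repeats: across 4373 entries, deviations from the generation 10 mean correlated at 0.833 and 0.837 between replicate 2 and cultures A and B of batch 1, and at 0.792 and 0.794 between replicate 3 and cultures C and D. Replicate 1 correlated at −0.0399 to 0.0679 with all 4.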

How the data were processed

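Plasmid barcodes were amplified with 20 PCR cycles per the labels' protocols, and the deposited values are raw whole-number counts per barcoded gene, with all libraries of a batch in 1 table. The matching of reads to barcodes is not given in the sources used here. Each table names an empty vector, left out of all fits, and 4871 gene entries for 4817 genes, since 54 genes have 2 entries. Names came from a RefSeq gene table, which matched 4865 entries, and chromosomes were read from systematic names, and no coordinates or sequences were used.

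From the counts, edgeR 4.0.16 (R 4.3.3) was run with TMM scaling, filterByExpr at a minimum count of 10, 1 coefficient per generation and quasi-likelihood F tests on the 9 AGY1613 libraries, with Benjamini-Hochberg adjustment over all entries tested and a threshold of 0.05. Strain differences came from a second fit to 27 libraries. The script was tested on simulated data. CPM used TMM-scaled gene counts of the fit, and floors of 3 counts cover counting error only, since PCR reads are not independent molecules. Libraries of a generation differed by far more than sampling noise (chi-square per degree of freedom of 2.62 to 57.5). Replicates come from separate transformations per the labels.

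Members, gene lists and tests were chosen with earlier results of these data known. Genes were named by rank within rules with at least 50 mean counts at generation 0: the lowest early changes among early-weighted falls, the lowest late changes among late-weighted falls, the lowest even falls, the highest gains, the extremes of each call set, and up to 3 called entries per gene list (at least 10 counts). The list of 100 entries from AGY1612 and AGY1614 was added, and further list members were named, after their values were seen. Same-numbered libraries of generations 5 and 10 deviated together (correlations 0.69, 0.768 and 0.771 across entries), so replicate numbers pair them. Those of generations 0 and 5 (0.056, 0.401 and 0.25) and of generations 0 and 10 (0.0388, 0.115 and 0.0525) were not all over 0.1. The labels do not say that a number ties a stock to its culture. The empty vector's share did rank same-numbered libraries alike: 0.00029%, 0.029% and 0.0023% at generation 0, 5.3e-05%, 0.0227% and 0.00067% at generation 5, and 0%, 0.0217% and 0.00015% at generation 10. Early changes given by replicate or culture pair libraries by number. The fits reported have no block, and blocked counts are also given. Alternatives were DESeq2 1.42.0, other scalings and filters, the replicate block, fits to 6 or 51 libraries and leaving out each library.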

Additional observations from a re-analysis of the deposited data

Results flagged for a closer look

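The late change of CCW12 differed between strains by the test of the difference itself, by −3.17 on the log2 scale between AGY1613 and AGY1611 and by −4.36 between AGY1613 and AGY1860 (edgeR adjusted p = 0.0112 and 4.67e-05). In the list of 100 entries lowest in AGY1612 and AGY1614, the median changes were below 0 in both intervals in all cultures, but the sign of the late minus early change was opposite in AGY1613 and AGY1860. Its median was −0.36, −1.34 and −1.17 in the 3 AGY1613 cultures and 0.12, 0.74 and 0.34 in the 3 AGY1860 cultures. This difference was not tested. Over 4373 entries the median late minus early change was −0.104, −0.157 and −0.0903 in AGY1613 and −0.157, −0.126 and −0.136 in AGY1860.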

How the results depend on the processing

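The fit decided the counts of calls more than the scaling or the filter did. Early calls, 0 in the fit reported, were 186 with DESeq2 (127 lower, 59 higher), 230 in the fit to 6 libraries and 502 there with a replicate block. Late calls (89) were 246 with DESeq2, 5 in the fit to 6 libraries and 140 there with a replicate block; the block in the fit to 9 libraries gave 108, of which 83 were shared. Whole-course calls (882) were 520 in the fit to all 51 libraries, 569 in the fit to 6 libraries and 346 there with a replicate block; the block in the fit to 9 libraries gave 1161. Calls of the late minus early change were 12 with DESeq2. For the strain differences DESeq2 gave 17 late calls against AGY1611, and 22 early and 12 late calls against AGY1860; a replicate block gave 5 early calls against AGY1860. Leaving out 1 library at a time gave 40 (without generation 5 replicate 3) to 199 (without generation 10 replicate 1) late calls, 340 (without generation 0 replicate 3) to 1240 (without generation 10 replicate 1) whole-course calls, 0 to 2 of the late minus early change, 0 to 11 late calls against AGY1611, and 0 to 2 early and 1 to 6 late calls against AGY1860.

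Late-weighted entries among the 476 falls (155) were 257 with class limits of 0.4 and 0.6, 66 with the count minimums, and 139 to 264 without 1 library. Early-weighted ones (10) were 28, 10 and 4 to 27, 4 with library size alone, and 38 with entries at 0 set to their bound, an alternative chosen after seeing the data. With library size alone, medians early, late and over the whole course were −0.14, −0.21 and −0.34 for the large subunit, −0.17, −0.25 and −0.45 for the small subunit, and 0.073, 0.038 and 0.11 for secretory genes. With log2(CPM + 1) differences they were −0.16 early and −0.21 late for the small subunit and 0.072 early for secretory genes. Without 1 library they ran from −0.13 to −0.0074, −0.23 to −0.10 and −0.34 to −0.15 for the large subunit, from −0.19 to −0.071 early for the small one, and from 0.031 to 0.19 early and 0.078 to 0.32 over the whole course for secretory genes. The cause was not tested. No direction of a named call reversed in any alternative. Depth also limits late losses, since 3 counts stand for 2.18 to 5.28 CPM at generation 10.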

Other observations

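The empty vector, left out of the fits, differed in its starting share between replicates, with 12, 2033 and 104 counts at generation 0, 1, 669 and 36 counts at generation 5, and 0, 333 and 2 counts at generation 10. In replicate 2, the only one with many counts, its share of the library was 0.029% at generation 0, 0.0227% at generation 5 and 0.0217% at generation 10. NUP170, of the inner ring of the nuclear pore, had 29, 50 and 27 counts at generation 0, 4, 11 and 41 counts at generation 5, and 0 in all 3 generation 10 libraries, while its log2 change in batch 1 was −0.01.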
